A study of Caenorhabditis elegans with 2 samples.

Results

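The genes described here make and reshape fatty acids in Caenorhabditis elegans. They were examined for binding of the E2F family protein EFL-3, mapped by chromatin immunoprecipitation with sequencing (ChIP-seq). The group held 10 of 19973 nuclear protein-coding genes, namely fasn-1, pod-2, sbp-1, elo-1, elo-2, elo-5, fat-2, fat-5, fat-6 and fat-7. They were chosen by function around fasn-1, selected on earlier peak signals and ranks of these same data, so the values are a description and carry no test. For each gene, all peak summits in the gene body and in the 2000 bp upstream were taken. The samples were 2 biological replicates of 1 group. Both were whole L1 larvae of mixed sex, 6 hours of age and starved after bleaching, from strain OP344. Its background is the unc-119(tm4063) mutation. The integrated transgene, wgIs344, fuses F49E12.6, which is efl-3, to TY1, EGFP and 3xFLAG tags and also carries unc-119(+). Both replicates thus had the tagged EFL-3, and the immunoprecipitation was directed against GFP. A single transgenic line was used, and peaks from whole larvae do not tell in which cells binding took place.

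Fatty acid synthesis starts when acetyl-CoA carboxylase makes malonyl-CoA, from which fatty acid synthase builds palmitate. Elongases then lengthen the chain and desaturases place double bonds in it, and worms can build polyunsaturated and branched-chain fatty acids in this way. SBP-1, the worm counterpart of the mammalian SREBP factors, activates many of these genes in the intestine and other tissues. E2F proteins are best known as regulators of the cell cycle.

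Of the 10 genes, fasn-1 had a strong peak and the others had weak peaks or none. The deposited lists comprise 1 for each replicate, 1 for the replicates pooled, and a reproducible set of 430 peaks, which the authors derived from the other lists by irreproducible discovery rate. Each of the first 3 held 30000 peaks and so reached far into weak signal. The signal value is the authors' measure of enrichment, has no unit and is compared here only within a list. A reproducible summit was present at 1 of the 10 genes, fasn-1, and at 2.67% of all protein-coding genes by the same window. A pooled summit of any strength was present at 9 of the 10 genes, against 71.4% of all genes. Among the 13715 protein-coding genes with window lengths in the range of the members, 77.2% had a pooled summit and 2.72% a reproducible one. Depth is not given in the files, so no interval from counts was computed.

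fasn-1 encodes fatty acid synthase. It spans 8975366 to 8986540 on the reverse strand of chromosome I in the ce11 build. Its strongest pooled summit lay at 8986094, in the first intron, 446 bp downstream of the gene's start. The signal there was 334.6 and the rank was 15 of 30000. In replicate 1 the matching summit was 8 bp away, with a signal of 166 and a rank of 19. In replicate 2 it was at the same base, with a signal of 159.9 and a rank of 17. The summit was thus among the 20 strongest of every list, and the replicate ranks differed by 2 places. The start of fasn-1 was the nearest annotated start of any gene. The first intron is 1670 bp long, and the summit was 360 bp into it. The nearest noncoding gene in the window, the ncRNA F32H2.13, was 1001 bp from the summit. Only 19 genes (0.0951%) had a larger pooled signal in their window than fasn-1.

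The other 3 pooled summits of fasn-1 were weak. The intergenic one, 150 bp upstream of the start, had a signal of 50.9 and a rank of 6791. It had a match in replicate 1, at rank 6268, and none in replicate 2. The other 2, in coding exons at 5150 and 8668 bp downstream, had signals of 39.6 and 37.0 and were matched within 100 bp in replicate 1 alone. For the summit at 8668 bp the start of the lincRNA gene linc-80 was nearer, at 2756 bp. The strongest summit thus exceeded the next one in the same gene 6.58-fold by signal. The q-value deposited for it was 0.0114, the lowest in the pooled list and shared by 132 peaks, while 259 peaks had a q below 0.05. The lowest q among the remaining 33 pooled summits of the 10 genes was 0.789. Among pooled peaks of similar rank, those just above were nearest to ztf-27 (rank 12), sec-61.G (rank 13) and Y17G9B.5 (rank 14). Those just below were nearest to Y22D7AL.10 (rank 16, 203 bp), xol-1 (rank 17, 4929 bp) and cest-16 (rank 18, 3373 bp).

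**Figure D1:**
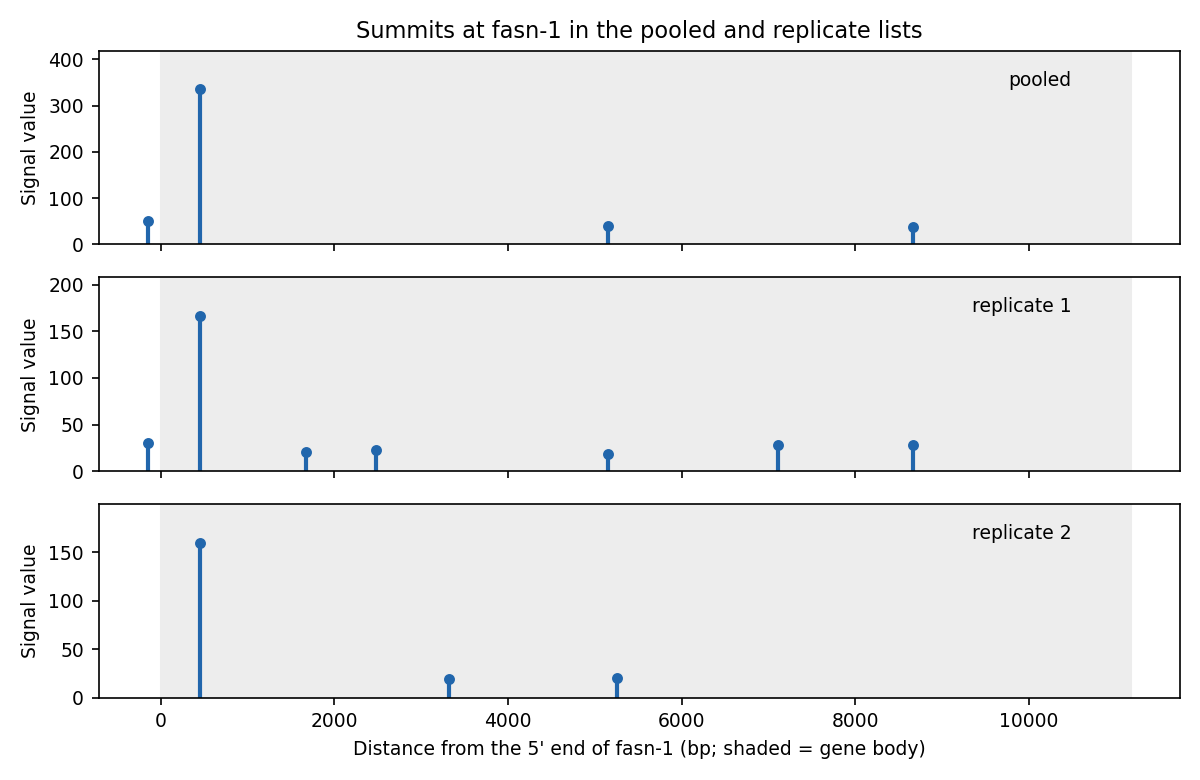
Signal value of each summit (vertical axis) against its distance from the 5' end of fasn-1 in bp (horizontal axis) in the pooled list and in replicates 1 and 2; the gene body is shaded. The summit 446 bp downstream of the start, with a pooled signal of 334.6, stands above all others in each list.

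The position of the fasn-1 value among all genes is shown by the distribution of the largest pooled signal per gene. Over all protein-coding genes the median of that value, with 0 for a gene that had no summit, was 41.2. Over the 10 genes it was 52.1. The median window length was 4.25 kb in the group and 4.03 kb in all genes. The next highest member, elo-1, had 66.5, so fasn-1 exceeded it 5.03-fold. The reproducible set was the same as the 430 pooled peaks of highest signal, the weakest of which had 94.8. None of the other 9 genes reached that value, which restates that they had no reproducible summit.

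**Figure D2:**
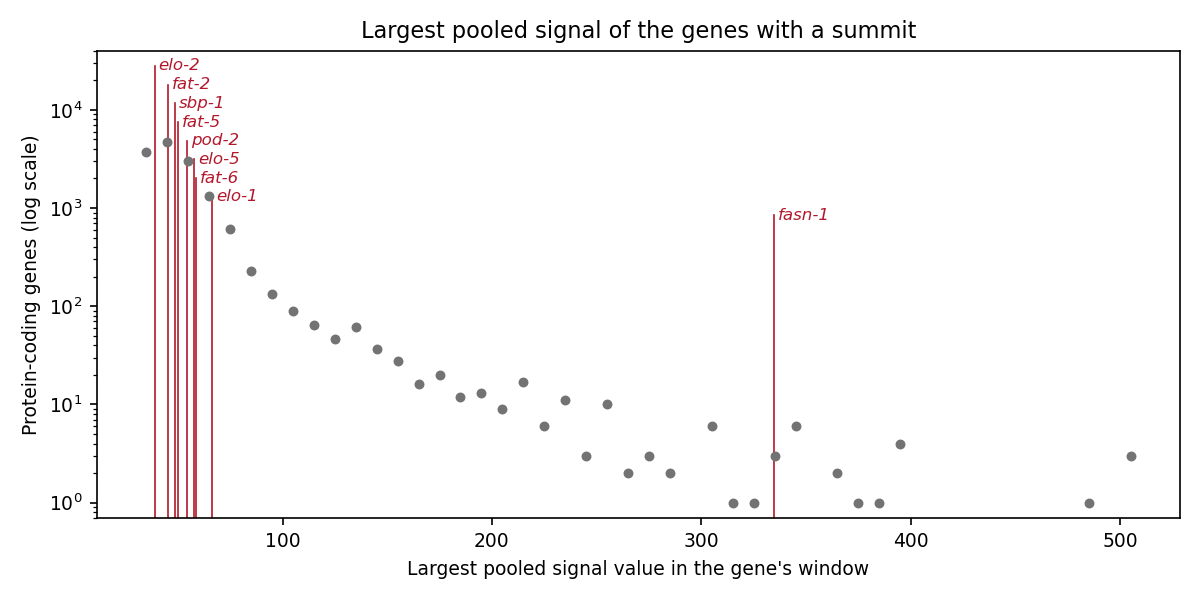
Number of protein-coding genes (log scale) against the largest pooled signal value in the window of the gene, in bins of 10, with red lines at the members that had a summit. fasn-1 lies at 334.6 and the other members between 38.9 and 66.5.

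pod-2 encodes acetyl-CoA carboxylase, the enzyme that supplies malonyl-CoA to fatty acid synthase. It had the most pooled summits of the group, 10 in a window of 17.9 kb, with signals from 35.0 to 54.3 and ranks from 4966 to 25002. The strongest lay in an intron, 4680 bp downstream of the first start, with a signal of 54.3 and rank 4966. It was matched at rank 12767 in replicate 1 (signal 25.1) and at rank 3882 in replicate 2 (signal 32.4). At 626 bp, a start of W09B6.4, which runs on the opposite strand over the same region, was nearer than any start of pod-2. The summit 866 bp upstream of pod-2 had a signal of 54.2 and ranked 11504 and 8983 in the replicates, and here the start of pod-2 was nearest, although W09B6.4 overlaps the position. The one 1850 bp upstream had a signal of 52.5, a match in replicate 1 alone (rank 2015) and a W09B6.4 start nearer, at 783 bp. In its interval 52.0% of 50-base words had another copy in the genome. No word with another copy was found in the intervals of the other 33 pooled summits. In all, 4 of the 10 pod-2 summits were matched in both replicates, and in 3 of the 10 another gene's start was nearer.

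sbp-1, the SREBP factor gene on chromosome III, had 3 pooled summits in a window of 16.2 kb. All of them lay between 773 and 2347 bp downstream of the start, which was nearest for each. The strongest, in a coding exon 986 bp downstream, had a pooled signal of 48.7 (rank 8280). Its signal was 18.8 in replicate 1 (rank 28731) and 26.1 in replicate 2 (rank 10331). The summit at 2347 bp, also in a coding exon, had a pooled signal of 48.4 and was found at the same distance in both replicates, at ranks 22812 and 8423. Both positions recurred, at low rank. With 0.185 summits per kb sbp-1 had the lowest density of the genes with a summit, and 48.3% of the 50-base words in its gene body had another copy in the genome. The part of these copies in the low density was not tested.

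The elongases lengthen chains by condensing them with malonyl-CoA, with loss of carbon dioxide. elo-1 acts on polyunsaturated chains and had the strongest summit after fasn-1. This summit was in an intron 494 bp downstream of the gene's start and 148 bp upstream of a later elo-1 start. Its pooled signal was 66.5 (rank 1763). Replicate 2 had it with a signal of 42.8 (rank 831), and replicate 1 had no summit within 100 bp. In the pooled list 8.95% of genes had a larger value. Another elo-1 summit, 1641 bp upstream, was 174 bp from the start of ndua-5, a gene for a respiratory chain subunit. The remaining 2 lay in coding exons, with signals of 36.3 and 32.7, and were matched within 100 bp in replicate 1 alone. No elo-1 summit was matched within 100 bp in both replicates. Replicate 2 did have summits 1515 bp upstream (rank 21655) and 1238 bp downstream (rank 18892), in intervals overlapping pooled peaks.

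elo-5 is needed for branched-chain fatty acids. Its strongest summit was in a coding exon near the end of the gene, 2159 bp downstream of the start, with a pooled signal of 57.7 (rank 3658). It had a signal of 34.6 in replicate 1 (rank 3213) and 21.1 in replicate 2 (rank 20845). Genes of piRNAs, small RNAs of the germ line, are dense around elo-5, with 11 in its window. The nearest start to all 3 elo-5 summits was that of a piRNA gene, 21ur-8571 in the case of the strongest. Among protein-coding genes the elo-5 start was nearest for all 3. elo-2, which extends palmitate, had 1 pooled summit, in a coding exon 658 bp downstream, with a signal of 38.9 (rank 18594). It was matched in replicate 1 (rank 8375) but not in replicate 2.

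The desaturases introduce double bonds. fat-6, which desaturates stearate, had its strongest summit in a coding exon 1211 bp downstream of the gene's start. Its pooled signal was 58.8 (rank 3332), with 35.5 in replicate 1 (rank 2814) and 24.9 in replicate 2 (rank 12267). A later annotated start of fat-6 was 195 bp away and nearest. Its other summit, 269 bp upstream (signal 41.4, rank 15238), was 9 bp from the start of ZK822.9. It was matched in replicate 2 (rank 4246) and not in replicate 1. fat-7, the close relative of fat-6 with the same activity, had no pooled summit. The nearest one was 369 bp beyond the upstream edge of its window, with a signal of 35.3. The 2 genes did not share a 50-base word with each other or with any other place in the genome.

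fat-5, which desaturates palmitate, had 3 pooled summits. The strongest was in a coding exon 1424 bp downstream, with a signal of 49.9 (rank 7416), and the start of the ncRNA W06D12.8 was nearer, at 586 bp. It was matched in replicate 1 (signal 33.1, rank 3960) and not in replicate 2. fat-2, which makes linoleate from oleate, had 4 pooled summits with signals from 39.3 to 45.3. The strongest was in a coding exon 144 bp downstream of the start (rank 11039, and rank 5724 in replicate 1). None of the fat-2 or fat-5 summits was matched within 100 bp in replicate 2. Replicate 2 did have a fat-5 summit 1558 bp downstream (rank 25583), in an interval overlapping that of the strongest pooled one.

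**Figure D3:**
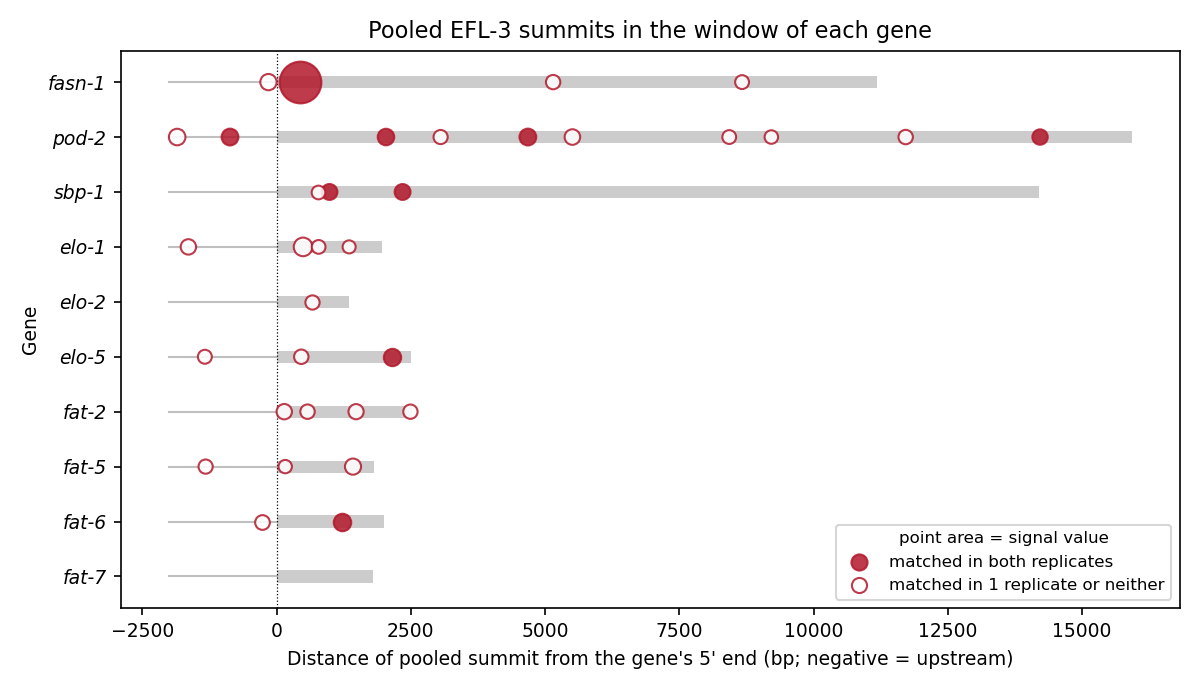
Pooled summits of each of the 10 genes by distance from the 5' end in bp; grey bars are gene bodies, grey lines the 2000 bp upstream, point area is the signal value, and filled points were matched within 100 bp in both replicates. The point of fasn-1 at 446 bp is the largest, pod-2 has 10 points and fat-7 has none.

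As a set, the 10 genes had 34 pooled summits in 75.2 kb of window, or 0.452 per kb, against 0.320 per kb for all genes. Without pod-2 the density was 0.419 per kb. The summit closest to the far end of the upstream 2000 bp was that of pod-2 at 1850 bp. Just outside the windows, the nearest pooled summits were 306 bp beyond elo-1 (signal 34.5), 369 bp beyond fat-7 (35.3), 419 bp beyond fasn-1 (41.5) and 449 bp beyond sbp-1 (52.8). Of these summits, 24 were matched within 100 bp in replicate 1 and 14 in replicate 2, and 9 (26.5%) in both, while 5 had a match in neither. In the whole pooled list 24.8% were matched in both. At least 1 summit matched in both replicates was present at 5 of the 10 genes, against 30.7% of all genes. These were fasn-1, pod-2, sbp-1, elo-5 and fat-6. Counting 1000 bp before and 500 bp past each annotated start, the number was 3, and in the upstream 2000 bp alone it was 1. With replicate summits matched within 200 bp it was 7, and within 50 bp it was 5. The share of all genes was not computed under these other settings.

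Apart from fasn-1, no member came near the top of any list. The best rank of the other 9 genes was 2015 in replicate 1 (pod-2) and 831 in replicate 2 (elo-1). The order of these genes differed between replicates. In replicate 1 the best ranks after pod-2 were 2814 for fat-6 and 3213 for elo-5. In replicate 2 those after elo-1 were 1792 for elo-2, whose summit there had no pooled counterpart, and 3882 for pod-2. fat-2 and fat-5 ranked 5724 and 3960 in replicate 1 and 28456 and 25583 in replicate 2. At the pod-2 summits ranked 2015 and 3882 a W09B6.4 start was nearer, at 807 and 635 bp. The pooled interval matching rank 2015 is the one with repeated words. Another gene's start was also nearer at the elo-5, elo-2 and fat-5 summits ranked here.

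**Figure D4:**
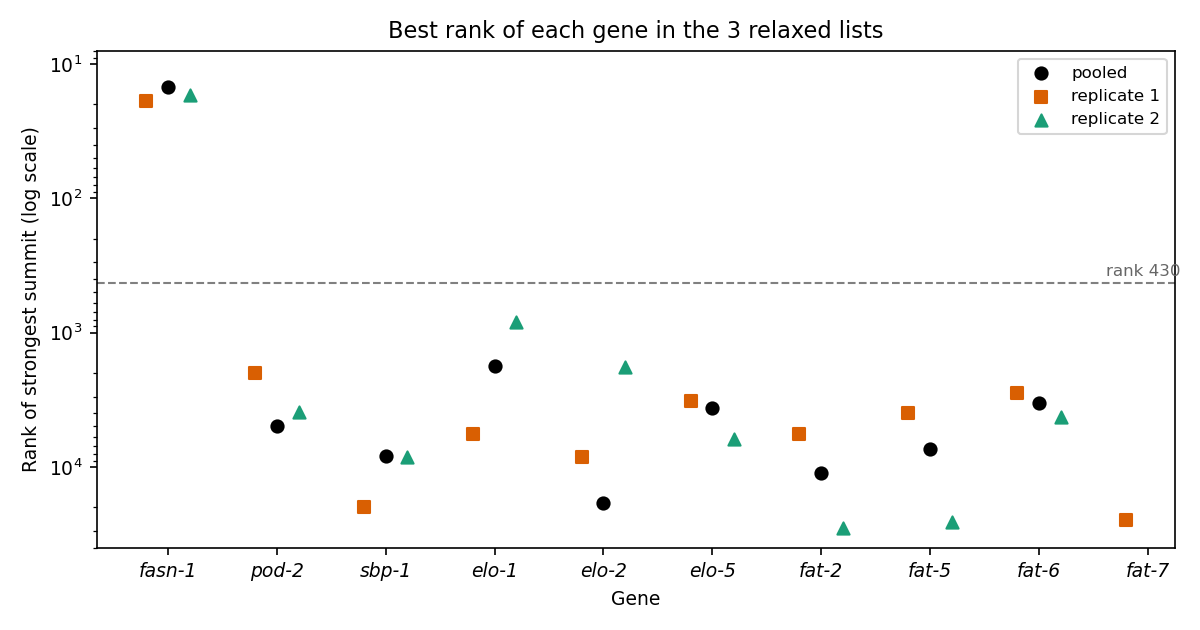
Rank of the strongest summit of each gene (log scale, strongest at the top) in the pooled list and in each replicate; the dashed line marks rank 430, the size of the reproducible set. fasn-1 sits at ranks 15, 19 and 17 and every other value is below the line, while fat-7 has a summit in replicate 1 alone.

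Most of the 34 summits were inside the member gene, as was most of the sequence searched. Of the 34, 16 were in coding exons of the member, 10 in introns, 1 in a 3' UTR and 7 upstream. Counted over coding exons of any gene, 52.9% of the members' summits were in one. Among summits in the same kind of window around any protein-coding gene, the share was 40.7% in the pooled list and 3.67% in the reproducible set. Within 500 bp of the gene's 5' end there were 7 summits, at 6 of the genes. The share of all genes at that distance was not computed, so this count has no background. The member had the nearest annotated start for 24 of the 34 summits, and with starts of protein-coding genes alone for 28. The first count is 70.6%, against 55.9% of all pairs of a protein-coding gene and a pooled summit in its window. At least 1 such summit was present at 8 of the 10 genes, against 52.6% of all genes. In the upstream 2000 bp alone 3 genes had one, and the share of all genes there was not computed.

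The sequence under a set of summits other than the strongest is printed from the RefSeq genome of WBcel235, the assembly of ce11, 100 bases to each side of the summit and on the strand of the gene, to show what the weak peaks look like. They are the elo-1 intron summit (chrIV:9526760-9526960, forward strand), the pod-2 summits 866 bp upstream (chrII:1135819-1136019, forward) and 4680 bp downstream (chrII:1141365-1141565, forward), both fat-6 summits (chrIV:11914376-11914576 and chrIV:11915856-11916056, reverse) and the fat-2 summit with an E2F word (chrIV:13325254-13325454, forward). Capitals mark words of the E2F consensus (TTTCCCGC, TTTCGCGC, TTTGCCGC or TTTGGCGC) and of the CHR element that DREAM complexes bind (TTTGAA or TTCGAA), on either strand. Stretches without capitals hold neither.
elo-1 intron: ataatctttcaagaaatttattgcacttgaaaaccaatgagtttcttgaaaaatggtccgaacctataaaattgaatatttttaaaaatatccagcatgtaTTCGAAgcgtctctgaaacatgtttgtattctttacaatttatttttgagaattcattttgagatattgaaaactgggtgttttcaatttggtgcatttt
pod-2 upstream: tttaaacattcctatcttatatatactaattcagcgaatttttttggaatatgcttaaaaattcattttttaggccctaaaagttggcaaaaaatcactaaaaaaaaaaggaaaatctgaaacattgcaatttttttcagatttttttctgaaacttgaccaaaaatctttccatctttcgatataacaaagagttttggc
pod-2 intron: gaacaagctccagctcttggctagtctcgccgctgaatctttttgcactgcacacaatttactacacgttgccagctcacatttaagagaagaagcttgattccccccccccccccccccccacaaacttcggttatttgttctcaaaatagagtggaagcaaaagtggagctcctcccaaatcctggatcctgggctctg
fat-6 coding exon: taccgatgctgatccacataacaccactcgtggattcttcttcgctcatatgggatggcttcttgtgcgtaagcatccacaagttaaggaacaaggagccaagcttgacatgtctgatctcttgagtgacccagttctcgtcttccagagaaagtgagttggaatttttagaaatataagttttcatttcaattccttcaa
fat-6 upstream: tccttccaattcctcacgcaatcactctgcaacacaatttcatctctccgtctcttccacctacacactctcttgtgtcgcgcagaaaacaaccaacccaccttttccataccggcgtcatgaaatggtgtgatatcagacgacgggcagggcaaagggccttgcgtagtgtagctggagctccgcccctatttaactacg
fat-2 intron: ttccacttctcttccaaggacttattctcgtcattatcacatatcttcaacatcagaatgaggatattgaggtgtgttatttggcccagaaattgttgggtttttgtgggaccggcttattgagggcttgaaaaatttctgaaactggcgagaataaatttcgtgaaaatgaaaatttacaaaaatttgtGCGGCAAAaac
The elo-1 and upstream pod-2 sequences are rich in A and T, with a GC content of 27.4% and 25.9%. The pod-2 intron summit sits beside a run of C and has 50.7% GC, and the upstream fat-6 summit has 51.2%. Over all 34 summits the median GC content was 43.8%, against 40.3% for all pooled peaks.

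An E2F word was present within 100 bp of 1 of the 34 member summits (2.94%), the fat-2 summit in an intron 1481 bp downstream of the start, where the word lies near the edge of the stretch printed. The share was 4.15% of all pooled peaks, 7.44% of the reproducible set and 4.69% of all promoters from 250 bp upstream to 50 bp downstream of a gene's start. The promoter stretch is longer than the sequence taken around a summit, so for each word searched its share is not on the same footing as the shares of summits. None of the 10 members had an E2F word in that promoter stretch. At the strongest fasn-1 summit no E2F word was found, and the nearest one was 2330 bp away. A CHR word was within 100 bp of 10 of the 34 summits (29.4%), against 43.9% of all pooled peaks and 44.0% of the reproducible set. It is short, and 68.9% of promoters had it. It was absent at the strongest fasn-1 summit and present at the elo-1 intron summit. The sterol regulatory element TCACNCCAC, the target of mammalian SREBP, was at none of the 34 summits, at 0.493% of pooled peaks and at 0.541% of promoters. The E-box CACGTG was at 1 of the 34 (2.94%), in fat-2, against 4.99% of pooled peaks and 5.82% of promoters. These are matches of letters in a window and not sites shown to be bound.

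Other genes of lipid metabolism gave the setting for the group. They comprised 96 genes in 8 lists, with a median largest signal of 46.2. Of the 96, 83 had a pooled summit and 4 a reproducible one, against 71.4% and 2.67% of all genes. None of the other 3 desaturase genes had a summit matched in both replicates, and only fat-1 had a pooled one (signal 41.1). Of 9 other elongases and elongation partners 8 had a pooled summit, led by elo-8 (60.0, rank 3001) and elo-4 (54.7, rank 4787). The elo-4 summit was matched in replicate 1 alone, and another gene's start was nearer, at 1156 bp. All 16 regulators of fatty acid synthesis had one, and 11 had one matched in both replicates, against 71.4% and 30.7% of all genes. Most of their windows were longer than the 4.03 kb median of all genes, with 22.2 kb at hlh-30. The part of window length in these counts was not tested. The genes lpd-2 and cebp-2 were counted for the same summit. The highest were hlh-30, a lysosome and lipid regulator (84.8, rank 610), and nhr-13, a nuclear hormone receptor gene (76.3, rank 922). No regulator had a reproducible summit.

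Precursor supply had 9 of 9 genes with a pooled summit and none with a reproducible one, against 71.4% and 2.67% of all genes. Its windows reached 9.77 kb, and the part of window length was not tested. The highest were pccb-1, a propionyl-CoA carboxylase subunit (86.4, rank 577), and cts-1, citrate synthase (77.9, rank 841). The pccb-1 summit was matched in replicate 1 alone. Among 11 genes of phosphatidylcholine synthesis and related steps, 2 had a reproducible summit, against 2.67% of all genes. That of pcyt-2.1, which acts on phosphoethanolamine, had a signal of 177 (rank 97, with 95 and 101 in the replicates). It was 29 bp from the start of Y37E3.29. That of cept-2, a phosphotransferase gene, was 362 bp upstream of its own start and reached 110.0. It ranked 298 in the pooled list, 136 in replicate 1 and 3943 in replicate 2.

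Glycerolipid synthesis and storage had 2 of 19 genes with a reproducible summit, against 2.67% of all genes. At atgl-1, a triglyceride lipase gene, it was 1834 bp upstream and reached 138, and the replicates ranked it 286 and 112. At acl-1, an acyltransferase gene, it was 178 bp upstream and reached 102, and the replicates ranked it 4522 and 309. Beta-oxidation and fatty acid activation had none among 19 genes. Its highest were acs-2, an acyl-CoA synthetase (86.8, rank 565), and cpt-1, carnitine palmitoyltransferase (63.9, rank 2181). At the acs-2 summit another gene's start was nearer, at 359 bp. Lipid transport and binding had none among 10, with lbp-6 (67.4) and acbp-1 (65.0) highest, the latter matched in replicate 2 alone. The signal at fasn-1, 334.6, was above that of all 96 of these genes.

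**Figure D5:**
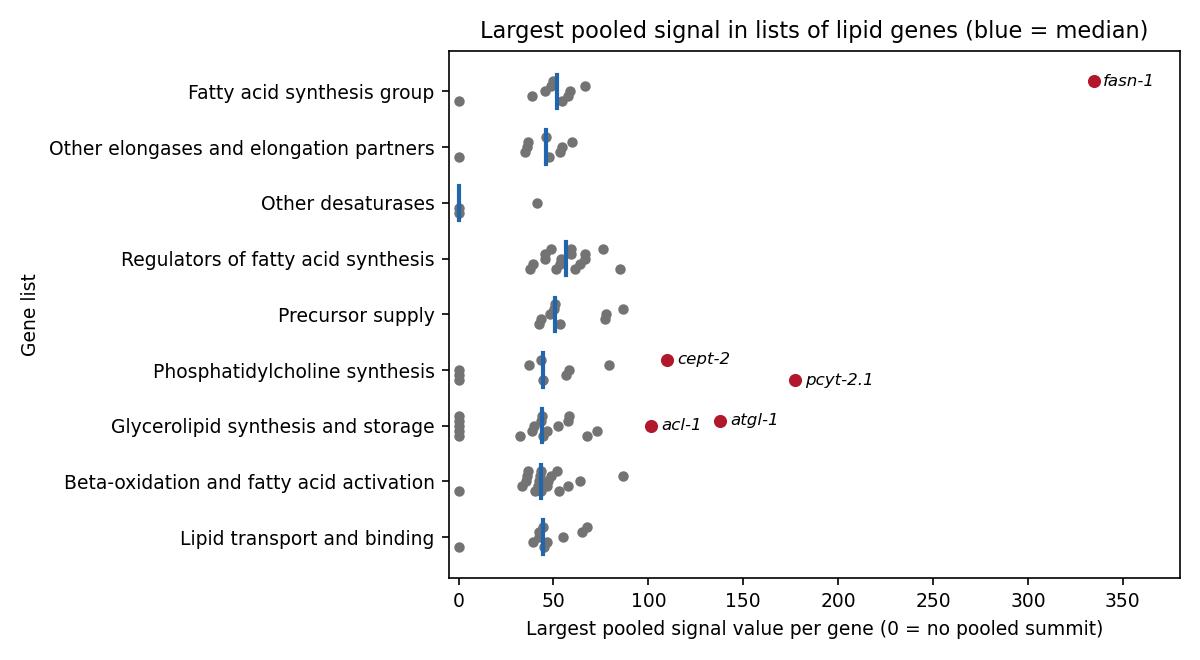
Largest pooled signal value per gene (0 for no pooled summit) in the fatty acid synthesis group and in 8 lists of other lipid genes; red points have a reproducible summit and blue bars are medians. fasn-1 lies at 334.6, and the next highest, pcyt-2.1, at 177.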

How the data were processed

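EFL-3 ChIP-seq peaks from 2 replicates of 1 group were used as deposited by the authors, on ce11 per the labels. The signal value and the −log10 of the q-value per peak are the authors' own, and the notes deposited with the files name 1 control alignment for all lists, which was not analysed here. Aligner, peak caller and their settings were not given in the sources used here, and read depth is unknown. The members and gene lists were chosen with earlier results of these data known. Genes came from Ensembl release 115 and sequence from RefSeq, both for WBcel235, the assembly of ce11. Summits were counted per gene in the gene body plus 2000 bp upstream. Summits within 100 bp were matched. All annotated transcript starts were used for the nearest start, except at the ranks next to fasn-1, where those of protein-coding genes were used. The counting was tested on simulated summits. Named outside the group were genes whose start was nearest to a member's strongest summit, genes of other lipid lists with a reproducible summit (otherwise the 2 highest), and genes at neighbouring ranks of fasn-1. Outside that rule, linc-80, ndua-5, ZK822.9, Y37E3.29 and F32H2.13 were named after their values were seen, for lying nearer to or beside a summit described. Of the symbols in these lists 1, lpd-1, was not matched. Python 3.11.15 was used. No test was run, because there is 1 group.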

Additional observations from a re-analysis of the deposited data

How the results depend on the processing

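The strong fasn-1 summit was kept under every window run except the upstream 2000 bp alone. In the upstream 2000 bp alone, 0 of the 10 genes had a reproducible summit, 1 had a pooled summit matched in both replicates, 3 had a summit to which they were nearest, 7 summits were left, and the median largest signal was 37.9. In a window reaching 1000 bp before and 500 bp past each annotated start, there were 3 genes matched in both replicates and 13 summits, with a median largest signal of 42.6. With pooled peaks of a q-value below 0.05 alone, 1 gene and 1 summit were left, the same fasn-1 summit, and the median largest signal was 0. The number of genes with an E2F word at a summit was 0 with those peaks, 0 within 50 bp of the summit and 0 with reproducible peaks alone. With each replicate alone it ran from 0 to 2, and the rank of the strongest fasn-1 summit from 17 to 19. Of 49 alternatives, 29 stayed within 1.5 times the reported count or within the replicate spread, and 20 moved beyond that. No share of all genes was computed under the alternatives, so the changes are not set against a background. Leaving piRNA genes out of the starts, an alternative chosen after seeing the data, gave 9 genes nearest to a summit. No paired analysis was possible because there is 1 group. Unknown depth limits what the absence of a weak summit can show.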

Other observations

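Some replicate summits at these genes were more than 100 bp from any pooled summit. Not all were separate peaks, as some lay in intervals that overlapped a pooled peak. An example was the replicate 2 fasn-1 summit 5259 bp downstream of the start, against 5150 bp in the pooled list. In replicate 1, 10 of 34 summits in the members' windows had no pooled summit within 100 bp, and in replicate 2 it was 12 of 26. At elo-2 the strongest summit of replicate 2 lay 1164 bp upstream of the start, with a signal of 37.3 and rank 1792, and replicate 1 had none there. At fat-7 the single summit of any list was in replicate 1, 593 bp downstream of the start, at rank 24796. The interval of the strongest fasn-1 peak was narrower than most, with 127 bp in the pooled list against a median of 380 bp. It was 119 bp in replicate 1 and 376 bp in replicate 2.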
